A study of Mus musculus with 2 samples.

Results

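The genes described here are 10, grouped around the axis by which T cells leave lymphoid organs: 6 Krüppel-like factors (Klf2, Klf3, Klf6, Klf7, Klf10 and Klf13), the forkhead factor Foxo1, the sphingosine-1-phosphate receptors S1pr1 and S1pr4, and Cd69. Not all of the Krüppel-like factors are known to act in T cell exit. The genes were taken by name from the 54532 Ensembl genes of the deposited count table, and all 10 were found and passed a minimum mean of 10 counts, as did 13041 genes in all. The members were picked with earlier results of these data known. The samples were CD8+ T cells from the spleens of WT mice described in the labels as ND, cultured for 8 h in RPMI 1640 lacking methionine or in complete RPMI 1640. Each medium had a single bulk RNA-seq library, of 19647681 counts without methionine and 14646527 counts in complete medium. With no replicates, no difference was tested and none carries a p-value. The labels leave unsaid how many mice gave the cells, whether both cultures shared them, and whether the cells were stimulated.

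Krüppel-like factors are zinc finger proteins that bind CACCC and GC-rich elements, some as activators and some as repressors. In resting T cells FOXO1 drives Klf2, and FOXO1 and KLF2 together maintain S1pr1, the lymph node homing gene Ccr7 and the survival receptor gene Il7r. S1PR1 senses sphingosine-1-phosphate in blood and lymph and lets the cell exit. CD69 appears on the surface early after activation and binds S1PR1, which is then internalised, so the cell is held back. Only transcripts were measured here, not receptor protein or movement of cells.

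Cd69, Klf3 and Klf6 were higher in the methionine-free library and Klf10 was lower, while Foxo1, Klf7, Klf13 and S1pr4 lay close to equal. S1pr1 was 1.53-fold higher and its activator gene Klf2 1.38-fold lower, which is short of the threshold used here. At a threshold of 1.5-fold on the log2 scale, 4 of the 10 genes were higher and 1 was lower, against 15.7% of all 13041 genes higher, 18.0% lower and 33.7% in either direction. At 2-fold 2 were higher and 1 was lower, against 5.80% of all genes higher, 9.29% lower and 15.1% in either direction. The median log2 difference of the 10 was 0.07, beside 0.04 over all genes. The share of the 10 genes past 1.5-fold was above that of all genes by few genes, their median was near that of all genes, and the values are therefore given gene by gene. In bulk samples, fewer cells of a type and less RNA per cell cannot be told apart.

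Below, a fold is the ratio of counts scaled by TMM, a method that equalises library composition, and the range after it is an exact 95% interval of the 2 counts. That interval takes in the error of counting reads, and nothing of how cultures or mice vary. CPM is scaled counts per 1000000, and a level per length is CPM per kb of annotated exon. For that length the exons of all annotated transcripts of a gene were merged, whether or not these cells use them. Levels and ratios between genes depend on this choice, which no interval covers. The comparison of a gene with itself between the libraries does not.

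Promoter windows from RefSeq (GRCm38.p6, 250 bases before to 50 after the start site) were found for 7 of the 10 genes, and not for Klf10, S1pr1 and Cd69. The 3 printed here belong to the KLF genes that differed most among those with a window, Klf3 and Klf6 (higher) and Klf2 (lower). They read from 5′ to 3′ on the strand of the gene, all plus, at chr5:64803271-64803570 for Klf3, chr13:5861239-5861538 for Klf6 and chr8:72318812-72319111 for Klf2. Capitals mark every match to the GC box, the E-box or the MEF2 core spelled out after them.
Klf3: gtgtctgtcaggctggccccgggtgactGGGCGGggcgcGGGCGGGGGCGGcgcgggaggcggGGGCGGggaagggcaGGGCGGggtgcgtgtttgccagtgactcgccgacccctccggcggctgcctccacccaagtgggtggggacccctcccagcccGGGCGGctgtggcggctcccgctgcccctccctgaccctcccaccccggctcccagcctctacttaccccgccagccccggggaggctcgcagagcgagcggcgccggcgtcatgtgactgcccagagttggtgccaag
Klf6: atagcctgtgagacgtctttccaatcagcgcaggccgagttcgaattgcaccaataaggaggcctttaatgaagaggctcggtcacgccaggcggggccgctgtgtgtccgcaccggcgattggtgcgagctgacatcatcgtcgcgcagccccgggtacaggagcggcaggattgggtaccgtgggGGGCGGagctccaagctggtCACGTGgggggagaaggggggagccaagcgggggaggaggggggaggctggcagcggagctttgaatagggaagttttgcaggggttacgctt
Klf2: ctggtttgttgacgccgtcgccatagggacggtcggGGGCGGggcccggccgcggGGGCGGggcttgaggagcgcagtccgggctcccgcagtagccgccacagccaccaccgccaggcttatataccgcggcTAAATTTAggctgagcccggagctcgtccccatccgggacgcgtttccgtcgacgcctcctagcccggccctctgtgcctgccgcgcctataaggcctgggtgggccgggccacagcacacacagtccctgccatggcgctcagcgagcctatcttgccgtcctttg

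Exact matches were looked for on both strands. The GC box GGGCGG, bound by SP and KLF proteins, was in 6 of the 7 windows, all but that of S1pr4, against 35.7% of all 32851 windows. Those 6 windows were GC-rich, from 58.3% in Klf7 to 76.7% in Klf3, against a median of 52.67% over all windows. The S1pr4 window had 41.0%. The part of base composition in these matches was not tested. The Klf3 window held 6 matches, the Klf2 window 2 and the Klf6 window 1. The CACCC box, which KLF proteins bind, was in 5 of the 7 windows, against 57.5% of all windows, and is not in capitals above. The MEF2 core TAAATTTA was in the Klf2 window, with its first base at position -117 from the start site, in none of the other 6, and in 0.545% of all windows. This motif was added after the sequences were seen. MEF2 factors act on Klf2 downstream of the kinase ERK5. The E-box CACGTG was in the Klf6 window, against 7.15% of all. The FOXO core GTAAACA (3.65% of all windows), the KLF site CCACACCC (3.56%), the cyclic AMP element TGACGTCA (1.79%), the AP-1 sites TGAGTCA or TGACTCA (5.2%), the NF-kB sites GGGACTTTC, GGGAATTTC or GGAAATTCC (0.84%) and the amino acid response sites TGATGCAAT or TTGCATCA (0.895%) had no match in the 7 windows. The windows of Klf3 and Klf6, higher without methionine, and of Klf2, lower, all held the GC box, in differing numbers. Klf10, Cd69 and S1pr1 have no window to set beside them, and a link between motif and difference was not tested.

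The labelled cell type was checked against its markers. All 8 CD8+ T cell markers were measured and none was past 1.5-fold, with summed levels of 1945 CPM without methionine and 2203 CPM in complete medium. The 7 B cell markers summed to 127 and 207 CPM, nearly all Ighm. Of the 6 measured, 4 were at least 1.5-fold lower, where 18.0% of all genes were. The other 2, Cd79a with 20 and 15 counts and Ms4a1 with 25 and 13, had ratios of 0.999 and 1.44. Apart from Ighm, each held at most 64 counts. Klf2, S1pr1 and Cd69 are also expressed in B cells, and the part of B cell RNA in their values was not tested. Cd4 had 11 and 9 counts, the myeloid gene Lyz2 4 and 4, and the granulocyte gene S100a8 and the NK cell gene Klrb1c had 0 counts in both libraries. The 11 myeloid and dendritic markers summed to 89.6 and 76.0 CPM, led by Cst3 and H2-Ab1. Flt3 among them had 149 and 33 counts and was 3.38-fold higher. The 6 NK cell markers summed to 139 and 162 CPM, nearly all Eomes, which CD8+ T cells also express. The 5 endothelial and stromal markers summed to 21.8 and 35.9 CPM, nearly all Pecam1, with Cdh5 at 0. The 4 CD4+ T cell, 5 erythroid and 3 platelet markers each summed to at most 5.77 CPM.

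The order of the genes by level differed between the media. Klf6 had the highest level per length in both libraries, at 83.2 without methionine and 43.0 in complete medium. Cd69 came next without methionine, at 70.6. Its merged exon length was 6509 bases of a locus of 8.11 kb, and a shorter transcript would place it higher. In CPM, without regard to length, Cd69 lay above Klf6 without methionine, at 460 against 365. In complete medium Cd69, at 24.3, stood behind Klf13, at 26.2, and their counting intervals overlapped. In the methionine-free library Klf13 followed at 23.2, and Foxo1, S1pr4 and Klf2 lay together at 14.1, 13.8 and 13.4 with overlapping intervals. S1pr1 at 6.05, Klf3 at 4.52, Klf10 at 4.07 and Klf7 at 3.57 closed the order there, and the neighbours Klf3 and Klf10, and Klf10 and Klf7, overlapped. In complete medium the lower end ran Klf2 at 18.5, S1pr4 at 15.7, Foxo1 at 13.3, Klf10 at 8.72, S1pr1 at 3.96, Klf7 at 3.41 and Klf3 at 1.93. The intervals of Klf2 and S1pr4 overlapped, as did those of S1pr1 and Klf7. Without methionine Klf3 thus stood level with Klf10, where in complete medium it was last, and Klf2 and S1pr4 stood level with Foxo1, where in complete medium they were above it.

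**Figure D1:**
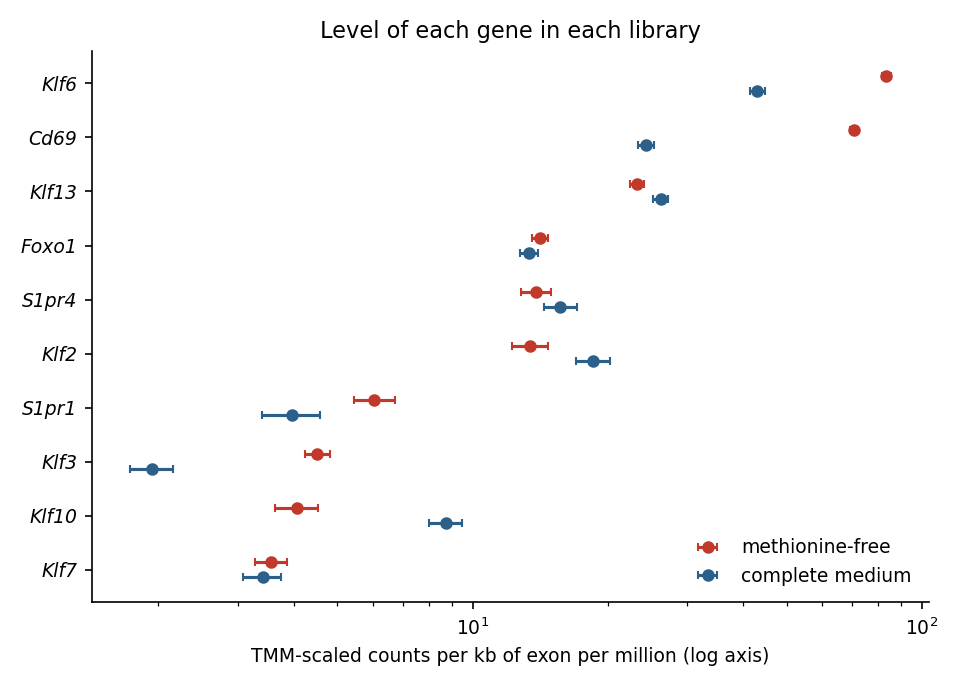
Level of each gene per kb of exon per 1000000 TMM-scaled counts (log axis) in the methionine-free library (red, upper point) and the complete-medium library (blue, lower point), 1 library each, with exact 95% Poisson counting intervals. Klf6, Cd69, Klf3 and S1pr1 lay higher without methionine, and Klf10, Klf2 and Klf13 lower, with intervals apart, by little for Klf13.

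KLF2 is the factor that holds T cells in quiescence and opens S1pr1. Klf2 (ENSMUSG00000055148, GRCm38 chromosome 8, 72319033 to 72321656, plus strand) had 486 counts without methionine and 503 in complete medium, or 24.8 and 34.2 CPM. It was 1.38-fold lower (1.22 to 1.57), short of 1.5-fold, at rank 2870 from the lowest log2 difference of 13041 genes. The counting interval lay below a ratio of 1 and held the 1.5-fold threshold. Klf2 is the member with the highest GC content over its transcripts, 61.6%, and the GC-richest decile of protein-coding genes had a median log2 difference of -0.16. With that median subtracted, Klf2 was 1.23-fold lower. Other GC-rich genes thus lay lower too, and the part of base composition in the value of Klf2 was not tested.

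KLF3 is mainly a repressor that recruits CtBP and competes with activating KLF proteins for their sites. Klf3 (ENSMUSG00000029178, chromosome 5, 64803388 to 64832901, plus strand) had 995 counts without methionine and 319 in complete medium, or 50.8 and 21.7 CPM, a 2.34-fold higher level (2.06 to 2.66). It ranked 457 from the highest log2 difference. An overlapping opposite-strand gene, Gm20033, had 18 and 8 counts, and an overlapping same-strand one, C230096K16Rik, 3 and 11, few beside those of Klf3. Reads of theirs that were counted to Klf3 or left out cannot be seen. Genes overlapping the other members held at most 12 counts, and the labels do not state whether counting used strand. Klf3 has a long exonic length, 11243 bases, in the longest decile of protein-coding genes. That decile had a median log2 difference of 0.14, against 1.22 for Klf3.

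KLF6 is induced early by growth factors and stress in many cell types. Klf6 (ENSMUSG00000000078, chromosome 13, 5861482 to 5870394, plus strand) had 7161 counts without methionine and 2774 in complete medium, or 365 and 189 CPM, 1.93-fold higher (1.85 to 2.02). No annotated gene overlaps it, and it carried the most counts of any KLF gene without methionine. KLF7 is a broadly expressed relative of KLF6 in structure. Klf7 (ENSMUSG00000025959, chromosome 1, 64029447 to 64122282, minus strand) had 568 and 407 counts, or 29.0 and 27.7 CPM, and its ratio was 1.05 (0.919 to 1.19). The interval of Klf7 held 1 and ended below 1.5-fold, well under the interval of Klf6.

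KLF10, first found as a TGF-beta-inducible early gene, restrains T cell activation and acts on TGF-beta signalling. Klf10 (ENSMUSG00000037465, chromosome 15, 38291463 to 38300706, minus strand) had 333 counts without methionine and 535 in complete medium, or 17.0 and 36.4 CPM, 2.14-fold lower (1.87 to 2.47). It had the lowest log2 difference of the 10 genes, at rank 1056 from the lowest of all genes. Klf11, its nearest relative and also TGF-beta-inducible, had 161 and 176 counts and was 1.46-fold lower (1.17 to 1.82), short of the threshold. KLF13 drives the late expression of the chemokine gene Ccl5 in T cells. Klf13 (ENSMUSG00000052040, chromosome 7, 63886351 to 63938915, minus strand) had 3426 and 2897 counts, 1.13-fold lower (1.07 to 1.19), while Ccl5 had 232 and 109 counts, 1.60-fold higher (1.27 to 2.02). Ccl5 was looked up after the members' values were seen. The small difference of Klf13 and the larger one of Ccl5 had opposite signs.

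The reads of the KLF family were divided differently among its genes in the 2 libraries. All 17 KLF genes together held 14689 counts without methionine and 8799 in complete medium. Klf6 took 48.8% of them without methionine (exact 95% binomial interval 47.9 to 49.6) and 31.5% in complete medium (30.6 to 32.5). Klf13 took 23.3% (22.6 to 24.0) and 32.9% (31.9 to 33.9), a lower share without methionine, while that of Klf6 was higher. Klf3 took 6.77% (6.37 to 7.19) and 3.63% (3.24 to 4.04). Klf10 took 2.27% (2.03 to 2.52) and 6.08% (5.59 to 6.60), and Klf2 3.31% (3.03 to 3.61) and 5.72% (5.24 to 6.22). These shares are of reads, which also depend on transcript length, so each is compared only with itself. Per length, Klf3 stood at 1.11 times Klf10 without methionine (0.980 to 1.26) and at 0.222 times in complete medium (0.192 to 0.255). Klf6 stood at 6.20 times Klf2 without methionine (5.65 to 6.81) and at 2.32 times in complete medium (2.11 to 2.56).

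**Figure D2:**
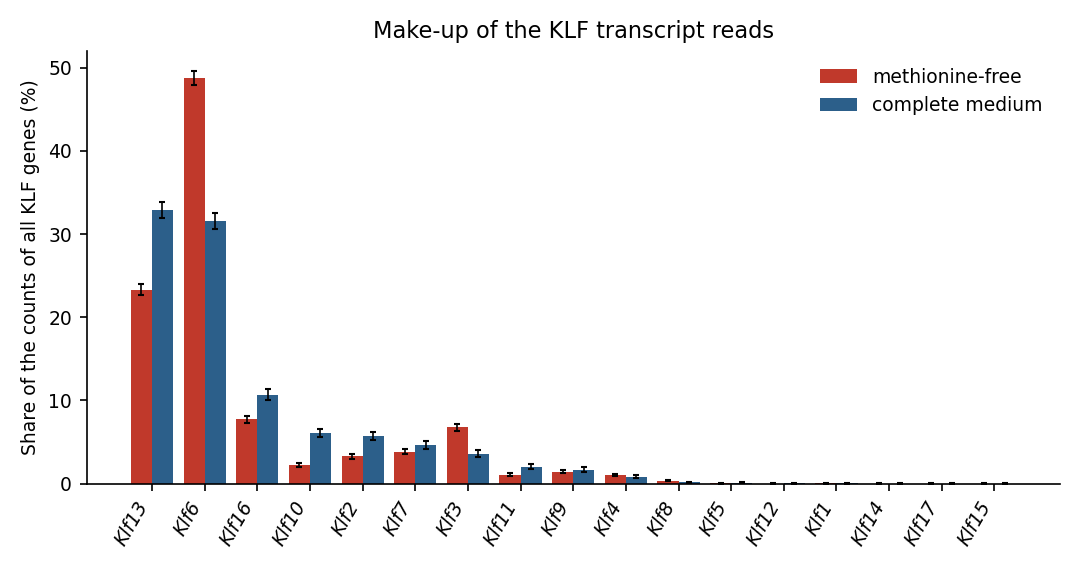
Share of the reads of all 17 KLF genes taken by each, in percent, without methionine (red, left bar) and in complete medium (blue, right bar), with exact 95% binomial intervals for counting error. Klf6 took 48.8% without methionine and 31.5% in complete medium, and Klf13 23.3% and 32.9%.

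Of the 11 KLF genes that are not among the 10, 5 passed the minimum, and 2 of these were at least 1.5-fold higher and none lower, beside 15.7% and 18.0% of all genes. Klf4, a quiescence factor of naive CD8+ T cells, had 151 and 75 counts, 1.51-fold higher (1.14 to 2.02). Klf8, a repressor close to KLF3, had 53 and 13 counts, 3.06-fold higher (1.64 to 6.11). Both rest on few reads. Klf16, with 1138 and 940 counts, and Klf9, with 208 and 146, lay within 1.5-fold. Klf1, Klf5, Klf12, Klf14, Klf15 and Klf17 had at most 8 counts in either library. Over the 11 measured KLF genes the median log2 difference was 0.06.

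FOXO1 is a transcription factor that AKT phosphorylation removes from the nucleus, so its activity is set largely after translation. Foxo1 (ENSMUSG00000044167, chromosome 3, 52268336 to 52353221, plus strand) had 2396 counts without methionine and 1698 in complete medium, or 122 and 116 CPM. The ratio was 1.06 (0.993 to 1.13), and its interval held 1. Foxo3, at 1682 and 1371 counts, was 1.09-fold lower (1.01 to 1.17), and Foxo4, at 327 and 238 counts, had a ratio of 1.03 (0.869 to 1.22). No measured FOXO gene was past 1.5-fold, and the per-length sum of the family was 30.2 without methionine and 30.3 in complete medium.

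Genes of the PI3K and AKT pathway, which acts on FOXO1, went both ways. Of the 16 measured, 4 were at least 1.5-fold higher and 2 lower, with a median log2 difference of 0.19. That is near the 33.7% of all genes past 1.5-fold, and the list is described by its single genes. Phlpp1, a phosphatase that inactivates AKT, had 914 and 368 counts, 1.86-fold higher (1.65 to 2.11), and Sirt1, a deacetylase of FOXO proteins, had 1435 and 551, 1.95-fold higher (1.77 to 2.16). Sgk1, a kinase that phosphorylates FOXO proteins, had 231 and 110 counts, 1.57-fold higher (1.25 to 1.99). The lower genes were Akt1, with 3009 and 3773 counts, 1.67-fold lower (1.59 to 1.76), and Pik3cd, the leukocyte PI3K catalytic subunit gene, with 11031 and 13815 counts, 1.67-fold lower (1.63 to 1.71). Akt1, Pik3cd and Sgk1 were named after their values were seen. The list was not uniform, since Pdpk1 and Rictor, which act in the activation of AKT, both had ratios of 1.38, and Inpp5d, which encodes the opposing phosphatase SHIP1, 0.870. After subtraction of the GC decile medians 3 were higher and 1 lower, as Sgk1 and Akt1 then lay just inside 1.5-fold. No share of all genes under the same subtraction is given beside these counts.

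The genes that FOXO1 and KLF2 are known to regulate in T cells did not share a direction. Of the 19 measured, 6 were at least 1.5-fold higher, 1 was lower and 12 lay between, with a median log2 difference of 0.13, and the share past 1.5-fold was again near the 33.7% of all genes. Fbxo32, a ubiquitin ligase gene and classical FOXO target, had 372 and 88 counts, 3.17-fold higher (2.51 to 4.04). Btg1, an antiproliferative gene of resting lymphocytes, had 9031 and 2417 counts, 2.80-fold higher (2.68 to 2.93). Irs2, an insulin receptor adapter gene and FOXO target, had 1063 and 477 counts, 1.67-fold higher, and Bcl6, a repressor gene of memory T cells, had 48 and 18 counts, a ratio with an interval of 1.14 to 3.65. The homing genes divided. Ccr7, the receptor for lymph node chemokines, had 30333 and 12045 counts, 1.89-fold higher (1.85 to 1.93), and Itgb7, an integrin chain of gut homing that KLF2 is known to induce, had 1790 and 2142, 1.60-fold lower. Il7r had 690 and 760 counts and was 1.47-fold lower (1.32 to 1.63), short of the threshold.

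With the median of their GC decile subtracted, Il7r was 1.68-fold lower, past the threshold, and Itgb7 was 1.43-fold lower, inside it. Il7r was named after its value was seen. The sixth higher gene of the list was S1pr1. Of the factors of naive and memory T cells in the list, Tcf7, Lef1 and Bach2 had ratios of 1.14, 1.09 and 1.05. Fbxo32 and Btg1 were thus higher beside a nearly equal level of Foxo1, while Il7r lay lower, as Klf2 did. Ccr7 and S1pr1, which FOXO1 and KLF2 also maintain, were higher, opposite to Klf2. Mki67, the proliferation marker gene, had 411 counts without methionine and 7040 in complete medium, 22.9-fold lower. The libraries thus also differed in this marker of dividing cells, by more than in any member. The part of that difference in the values of these genes, and of all the members, was not tested.

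**Figure D3:**
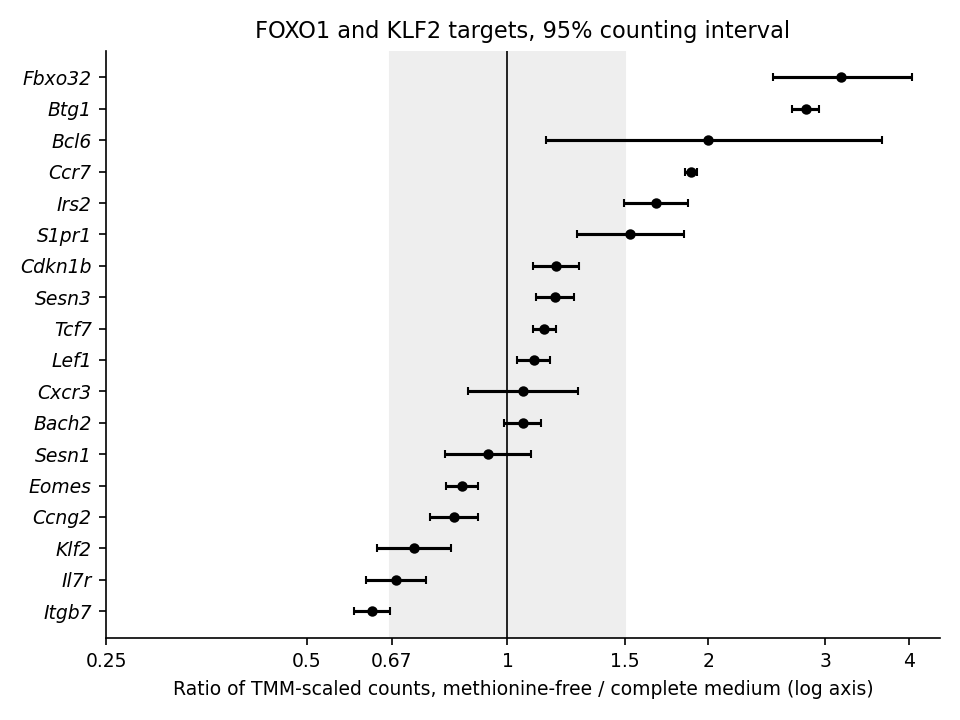
Ratio of TMM-scaled counts, methionine-free over complete medium (log axis), for 18 of the 19 measured FOXO1 and KLF2 targets, with 95% counting intervals; the grey band spans 1.5-fold either way. Fbxo32, Btg1, Bcl6, Ccr7, Irs2 and S1pr1 lay above the band, and Itgb7 below it.

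S1PR1 is the receptor that lymphocytes need to leave lymphoid organs. S1pr1 (ENSMUSG00000045092, chromosome 3, 115710433 to 115715072, minus strand) had 361 counts without methionine and 177 in complete medium, or 18.4 and 12.1 CPM, 1.53-fold higher (1.27 to 1.84). The interval lay above 1 but reached below 1.5, so at this depth the gene cannot be placed firmly on either side of the threshold. With the GC decile median subtracted the ratio was 1.48, inside the threshold. S1PR4 is the receptor restricted largely to lymphoid and blood cells, with a less settled part in T cell migration. S1pr4 (ENSMUSG00000044199, chromosome 10, 81497747 to 81500132, minus strand) had 647 and 549 counts, 1.13-fold lower (1.01 to 1.27). Its transcripts are GC-rich, at 59.3%, and with the decile median subtracted the ratio was 0.989.

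Of the 4 measured S1P receptor genes 1, S1pr1, was higher and none lower, beside 15.7% and 18.0% of all genes, with a median log2 difference of 0.35. S1pr4 had the highest level per length of the family in both libraries. Per length, S1pr4 stood at 2.29 times S1pr1 without methionine (2.01 to 2.61) and at 3.96 times in complete medium (3.34 to 4.72). The lead of S1pr4 over S1pr1 was smaller without methionine, with intervals apart. S1pr2, a receptor that restrains migration, had 198 and 106 counts, a ratio of 1.40 (1.10 to 1.79). S1pr3 had 14 and 9 counts and S1pr5 had 2 and 0, so no difference in either was detectable at this depth. Set against its activator gene, S1pr1 stood at 0.450 times Klf2 per length without methionine (0.392 to 0.517) and at 0.213 times in complete medium (0.179 to 0.254).

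Cd69 had the highest log2 difference of the 10 genes. Cd69 (ENSMUSG00000030156, chromosome 6, 129267325 to 129275436, minus strand) had 9007 counts without methionine and 2326 in complete medium, or 460 and 158 CPM, 2.90-fold higher (2.77 to 3.04). It ranked 256 from the highest of all genes. Its transcripts are AT-rich, with a GC content of 38.5%, and the AT-richest decile of protein-coding genes had a median log2 difference of 0.19. With that median subtracted, Cd69 was 2.54-fold higher, still past 2-fold. Against the receptor that its protein holds down, Cd69 stood at 11.7 times S1pr1 per length without methionine (10.5 to 13.0) and at 6.15 times in complete medium (5.28 to 7.21). The size of these ratios depends on the merged exon lengths, which are the same for both libraries. Both genes were higher without methionine, and Cd69 by the larger factor.

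The nearest measured protein-coding gene on the low-coordinate side of Cd69 was Clec2d, 80.8 kb away in the same cluster of C-type lectin genes. Clec2d had 1654 counts without methionine and 529 in complete medium, 2.34-fold higher (2.12 to 2.59), as Cd69 was, while Gabarapl1 on the other side, 258 kb away, had a ratio of 1.20 (1.07 to 1.34). S1pr4 lies 2.17 kb from Gna15, a G protein subunit gene of blood cells, which had 154 and 52 counts, 2.22-fold higher (1.61 to 3.10), beside a level of S1pr4 close to equal. Tbc1d1, the measured gene before Klf3 and 452 kb away, had 1132 and 1383 counts and was 1.63-fold lower, opposite to Klf3. Gm10282, 13.8 kb from Klf2, had 553 and 852 counts and was 2.06-fold lower. These 4 were the only ones of the 20 flanking genes, 1 on each side of each member, past 1.5-fold, a smaller share than the 33.7% of all genes. Clec2d and Gm10282 thus had the direction of their neighbour, Tbc1d1 the opposite one, and Gna15 differed where S1pr4 hardly did. The flanking genes on the other side of Klf3 and Klf2 lay within 1.5-fold and went otherwise. Tlr1, 91.8 kb from Klf3, had a ratio of 1.39 (1.17 to 1.65), the direction of Klf3. Eps15l1, 19.3 kb from Klf2, had a ratio of 1.42 (1.32 to 1.53), opposite to Klf2.

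**Figure D4:**
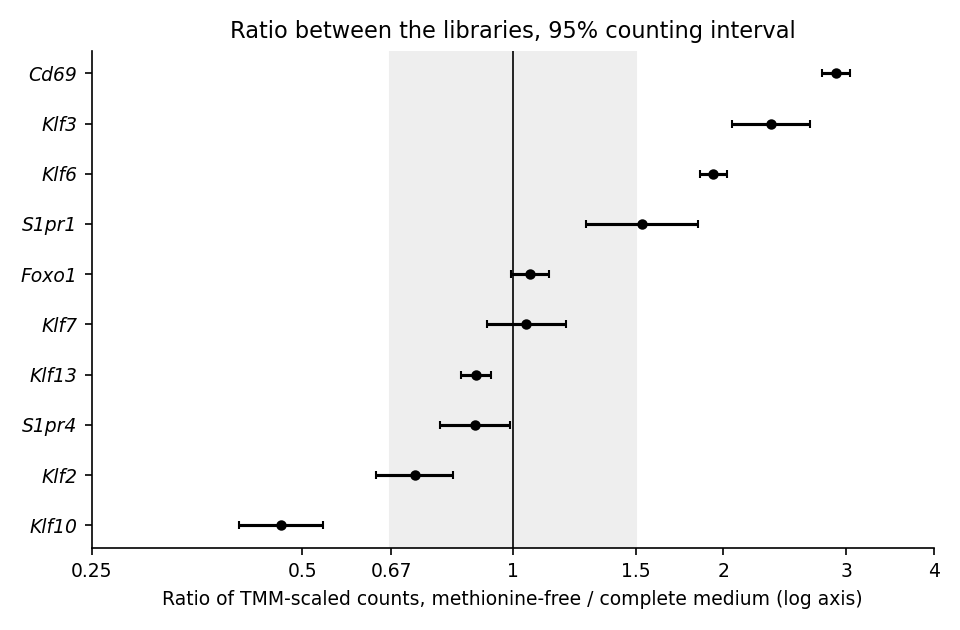
Ratio of TMM-scaled counts, methionine-free over complete medium (log axis), for the 10 genes with exact 95% counting intervals; the grey band spans 1.5-fold either way. Cd69 (2.90), Klf3 (2.34), Klf6 (1.93) and S1pr1 (1.53) lay above the band and Klf10 (0.467) below it, and the interval of S1pr1 reached into it.

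Among transcripts of proteins that act on S1PR1 signalling, most lay within 1.5-fold, and the 3 higher ones were RGS genes. Of 20 measured, 3 were higher and 1 lower, against 15.7% and 18.0% of all genes, with a median log2 difference of -0.03. RGS proteins speed the inactivation of G proteins behind chemokine and S1P receptors. Rgs1 had 1339 and 462 counts, 2.17-fold higher (1.95 to 2.42), Rgs16 had 834 and 213, 2.93-fold higher (2.52 to 3.43), and Rgs2 had 129 and 26, 3.72-fold higher (2.43 to 5.91). These 3 are the only RGS genes on the list, which was chosen with earlier results known, so they do not describe RGS genes in general. The lower gene was Arrb1, a beta-arrestin gene of receptor desensitisation named after its value was seen, with 1703 and 2497 counts, 1.96-fold lower (1.84 to 2.08). Gnai2, the main inhibitory G protein gene of lymphocytes, had a ratio of 0.748, and Grk2, the kinase that desensitises S1PR1, 0.841.

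Of 15 measured genes of S1P synthesis, breakdown and export, 2 were higher and 1 lower, against 15.7% and 18.0% of all genes, with a median log2 difference of -0.12. Sgpl1, the lyase that breaks S1P down irreversibly, had 1594 and 733 counts, 1.63-fold higher (1.49 to 1.78). Acer2, an alkaline ceramidase of the Golgi that yields sphingosine, had 225 and 68 counts, 2.48-fold higher (1.88 to 3.30). Cers4, a ceramide synthase gene, had 144 and 228 counts, 2.11-fold lower (1.71 to 2.62). The genes past the threshold thus encode the S1P lyase, a ceramidase and a ceramide synthase, and no kinase that makes S1P. Of the kinases that make S1P, Sphk2 had 1219 and 614 counts, a ratio of 1.49, and Sphk1 had 19 and 18 counts. The exporter gene Spns2 had 2 and 0 counts. With the GC decile medians subtracted, 3 genes of this list were higher and 2 lower, Sphk2 reaching 1.67-fold. The share of all genes past 1.5-fold under that subtraction is not given, so these counts have no background.

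Genes of tissue residency, in which Cd69 takes part, also went both ways. Of 14 measured, 5 were higher and 2 lower, where 15.7% of all genes were higher and 18.0% lower, and the median log2 difference was -0.03. The higher genes beside Cd69 were Nr4a1, an orphan nuclear receptor gene induced by antigen receptor signals (10226 and 3988 counts, 1.92-fold), Bhlhe40, a transcription factor of resident T cells (14242 and 6249, 1.71-fold), Ahr, the aryl hydrocarbon receptor gene (162 and 59, 2.06-fold), and Cxcr6, a chemokine receptor of liver-resident T cells (313 and 128, 1.83-fold). The genes most tied to epithelial residency were scarce. Itgae, which encodes CD103, had 22 and 31 counts, 1.88-fold lower (1.05 to 3.41), and Zfp683, which encodes Hobit, had 13 and 19, 1.95-fold lower with an interval that held 1 (0.914 to 4.30). With the minimum mean set at 100 counts the list median was 0.45, so its value depends on these scarce members. Of 15 measured KLF cofactors and partners, 1 was higher and none lower, fewer than the 33.7% of all genes past 1.5-fold. It was Crebbp, a histone acetyltransferase gene, with 2501 and 1087 counts, 1.72-fold (1.61 to 1.85). The next largest differences were Kat2b, another acetyltransferase gene, with 279 and 305 counts, 1.46-fold lower (1.55-fold, past the threshold, with the GC decile median subtracted), and Ep300, the relative of Crebbp, with 3335 and 1758, 1.42-fold higher. Ctbp1, the corepressor gene of KLF3, had a ratio of 0.942, and Mapk7, which encodes ERK5, 1.04.

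**Figure D5:**
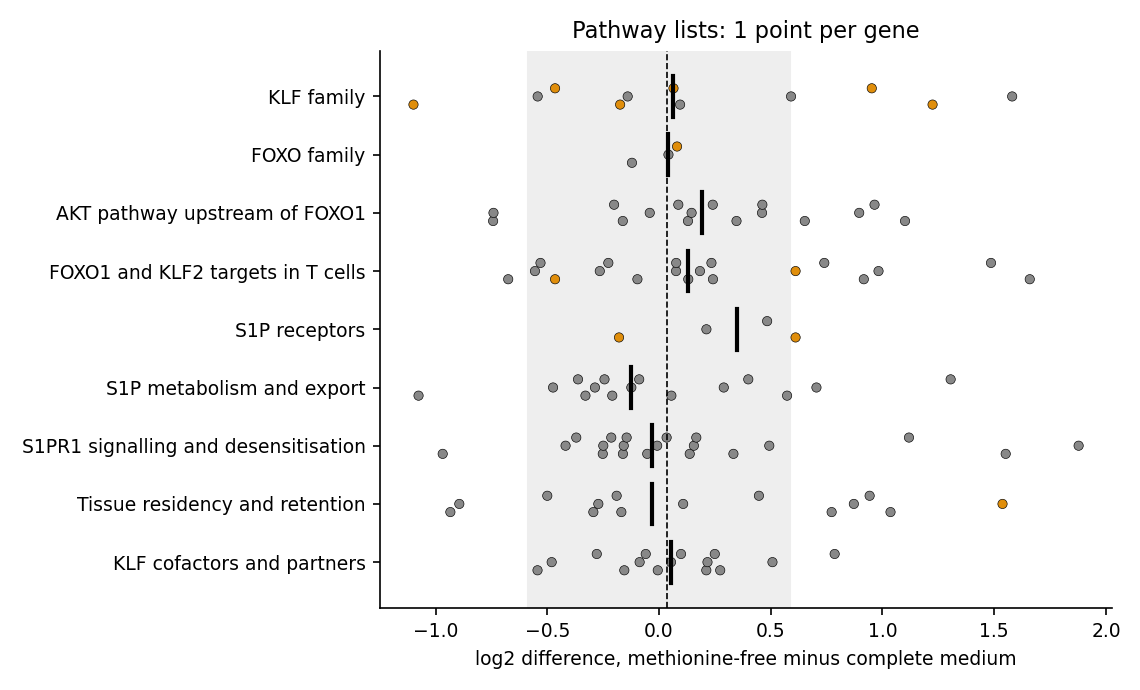
Log2 difference, methionine-free minus complete medium, of each measured gene (1 point, orange for the 10 genes of the report) in the pathway lists; the thick bar is the list median, the dashed line the median of all genes (0.04), and the grey band spans 1.5-fold either way. Points of most lists lie on both sides of the band.

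By the distance of log2 CPM in the 2 libraries, the protein-coding genes nearest to Cd69 were Btg1 (461 and 165 CPM), Nfe2l1 (412 and 198 CPM) and Klf6 (365 and 189 CPM). Those nearest to Klf10 were Dusp22, Klhl5 and Inpp1, with ratios of 0.459, 0.444 and 0.496. With 2 libraries this likeness is of level and difference only. Btg1 was 0.0555 from Cd69 by this distance, while Nfe2l1 and Klf6 were farther, at 0.359 and 0.417. A link between these genes was not tested.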

How the data were processed

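The deposited table gives raw counts per Ensembl gene, as whole numbers that the authors did not scale. Per the submitters' processing notes, reads were placed on build mm10. Aligner, counter, annotation release and strand setting are not stated in any source at hand. The labels' protocols name both a whole-RNA and an mRNA kit without saying which made which library. The columns were matched to the media by sample titles and descriptions, the name of the complete-medium column being a misspelt form of control.

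Symbols, coordinates (1-based) and merged exon lengths came from GENCODE M21, on the assembly of mm10, for 54495 of 54532 identifiers. Counts were scaled by TMM in edgeR 4.0.16 (R 4.3.3), with factors of 0.997 without methionine and 1.003 in complete medium. Log2 differences carried a prior count of 0.5, adjusted for library size. Genes were called by a log2 difference past 1.5-fold or 2-fold, after a minimum mean of 10 counts. Printed folds carry no prior count. Intervals are exact conditional binomial (Clopper-Pearson) or Poisson ones (Python 3.11.15, scipy 1.17.1). Reads without molecular identifiers are not independent molecules, so intervals cover counting error alone. The smallest step, 1 count, equals 0.0510 CPM without methionine and 0.0681 CPM in complete medium. The steps were tested on simulated libraries.

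The members and lists were chosen with earlier results of these data known. The named genes are the 10 members, every gene past 1.5-fold in the KLF, FOXO, S1P receptor, target and residency lists, the 3 largest differences of each other list, and the 3 genes nearest to the highest and the lowest member. Other genes named, among them list members within 1.5-fold, flanking genes and the TGF-beta genes, were named after their values were seen. A few genes of the lists are counted but not reported here by name. The alternatives were other scalings (among them size factors of DESeq2 1.42.0), a prior count of 2, other minimum counts and, added after seeing the data, subtraction of the median of each decile of transcript GC content. A planned comparison of the KLF proteins was not made.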

Additional observations from a re-analysis of the deposited data

How the results depend on the processing

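No paired analysis was possible because each medium has 1 library, and for the same reason none could be left out. Of 166 values under the alternatives, 155 stayed within their counting interval (for list medians, within the median bounds of their genes' intervals, and for counts of genes, within 1.5 times). No member past 1.5-fold changed sign. Values near 0 did: the log2 difference of Klf7 was -0.0033 with the GC decile median subtracted, against 0.065. The KLF family median was -0.14 with no minimum count and -0.038 with a minimum mean of 100, against 0.065, and the residency median was 0.064 with the GC subtraction, against -0.030. Scaling by total counts, by the median of ratios, by the upper quartile or by TMM without cell cycle and histone genes, and a prior count of 2, moved no member by more than 0.0118 on the log2 scale. With the GC decile median subtracted, the log2 differences were 1.34 for Cd69, 0.86 for Klf6 and -0.085 for Klf13, and 3 members were higher and 1 lower, S1pr1 being lost at 0.56. All genes were not counted under the GC subtraction, so such counts have no share of all genes beside them. Past 1.5-fold lay 4898 higher and 6312 lower genes of the whole table with no minimum count, where a few counts can make that ratio, and 1163 and 1300 with a minimum mean of 100 counts. Past 2-fold lay 756 higher and 1211 lower genes, and 2 higher members. With a minimum mean of 100 counts the residency median was 0.45, since its scarce genes were left out. Depth limits S1pr1, on 361 and 177 counts, most among the members.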

Other observations

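Klf10 and Klf11, both known as TGF-beta-inducible genes, lay lower without methionine, so 22 genes of TGF-beta signalling and its early targets were looked up after those values were seen. Of the 19 measured, 4 were at least 1.5-fold higher and 2 lower, near the 33.7% of all genes past that size, with a median log2 difference of 0.23. The higher genes were Jag1 (63 counts without methionine and 15 in complete medium), Tgif1 (2349 and 738, 2.39-fold), Skil (3517 and 1617, 1.63-fold) and Id2 (1411 and 670, 1.58-fold). Tgif1 and Skil encode corepressors of SMAD proteins. Bambi, which encodes a decoy receptor, had 18 and 28 counts and was 2.08-fold lower. Smad7, the feedback inhibitor gene, had a ratio of 1.37 (1.21 to 1.56), and the receptor genes Tgfbr1 and Tgfbr2 had ratios of 1.18 and 1.08. The lower level of Klf10 was thus not shared by Smad7, Skil or Tgif1 in these libraries.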
